A study of Mus musculus with 5 samples.

Results

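The lipid droplet genes described here are the coat proteins Plin1, Plin2, Plin3, Plin4 and Plin5, the CIDE proteins Cidea and Cidec, the triglyceride lipases Pnpla2 and Lipe, and the lipase inhibitor G0s2. They were chosen by symbol, and all 10 were found among the 24527 genes of the count table. Their counts come from bulk RNA-seq of microscopically checked prostate tumors in 5 TripleTg mice, of which 3 had been castrated at 4 months of age and 2 were intact, and all were 8 months old when analyzed. All 5 mice carried hHGFtg, H11 hMET/+, Ctnnb1 L(Ex3)/+ and PB Cre4 on a mixed C57BL/6 and C3H SCID background. The human HGF transgene of these mice is expressed ubiquitously, whereas human MET and a β-catenin stabilized by removal of an exon of Ctnnb1 depend on Cre from the probasin promoter, which acts mainly in prostate epithelium. The libraries were made from pieces of tissue without sorting of cells, so a larger number of cells of a type and more RNA per cell cannot be told apart in any value below.

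Lipid droplets store triglyceride and cholesteryl ester behind a single layer of phospholipid, and perilipins coat that surface and control which enzymes reach it. Plin1, Plin4 and Cidec are known mainly from white fat, where Cidec fuses droplets into the single large droplet of an adipocyte and Plin1 holds lipolysis in check until protein kinase A phosphorylates it. Plin2 and Plin3 are made by most cells and coat small droplets, including those of lipid-loaded macrophages. Pnpla2 (adipose triglyceride lipase) removes the first fatty acid from triglyceride, Lipe (hormone-sensitive lipase) acts next on diglyceride, and G0s2 binds and inhibits Pnpla2.

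Total counts were 28015507, 18951782 and 20492061 in castrated samples 1, 2 and 3, and 21560355 and 22853501 in intact samples 1 and 2. Levels are given as CPM, counts scaled to library size with the trimmed mean of M-values, or as TPM, which also corrects for gene length, where genes are compared with each other. Of the 10 genes, 9 had a CPM above 1 in at least 2 samples and were tested, and Plin5 was not. The epithelial genes Krt8 and Epcam were abundant in all 5 samples, with Krt8 between 659 and 1154 CPM. Of the genes that mark secretory prostate, Pbsn was between 0 and 0.453 CPM in 4 samples and 5.19 in intact sample 2, and Tgm4 was at most 0.418 CPM in the same 4 samples and 1343 in intact sample 2. Castrated sample 3 stood apart in another way. It held 13677 CPM of Alb, the albumin gene of liver, whereas the other 4 samples held between 0.695 and 48.6, and its 4 hepatocyte genes summed to 15918 CPM against 54.3 or less elsewhere. Fitted changes and ratios of the tested lipid droplet genes are therefore also given without castrated sample 3, with the genes tested in all samples kept, and the other lists are given sample by sample.

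The adipocyte droplet genes Plin1, Plin4 and Cidec were far higher in castrated samples 2 and 3 than in castrated sample 1 or the intact samples. In castrated sample 1, Plin1 and Plin4 stayed near the intact samples. Cidec was low there, on 11 counts, but 8.27 times the intact mean. Plin2 and G0s2 were higher in every castrated sample, castrated sample 1 included. The lipases Pnpla2 and Lipe and the coat protein Plin3 overlapped between the groups, and Plin5 and Cidea were scarce everywhere. Of the 9 genes tested, 8 had a positive and 1 a negative fitted log2 fold change of castrated over intact samples. Plin1, Plin4 and Cidec, 3 of the 9, passed the filter only through castrated samples 2 and 3, where they were high, so they had to differ. Their presence fixes the median of the 9, which was 2.36 where that over all 14612 genes tested was -0.03, and nothing is read from it. With a CPM above 1 required in at least 3 samples, which left 5 of the genes, the median was 0.65. It was 2.16 without castrated sample 3 with the same genes kept. With the filter applied anew it was 0.33 without castrated sample 2, where Plin1, Plin4 and Cidec left the test, and 0.40 without castrated sample 3, where Cidea left it too.

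With edgeR's quasi-likelihood test and Benjamini-Hochberg adjustment over all genes tested, 0 of the 9 genes had an adjusted p under 0.05 with an absolute log2 fold change above 1. The same rule called 0 of the 14612 genes (0%), and the smallest adjusted p of any gene was 0.289. DESeq2 called 989 genes, 5 of the 9 among them, and edgeR's likelihood ratio test 369 genes, 4 of the 9 among them. At an unadjusted p under 0.05 with a log2 fold change above 1, 5 of the 9 (Plin1, Plin2, Plin4, Cidec and G0s2) were higher in castrated samples, where 7.66% of all genes tested were, and 0 were lower, where 3.26% were. Every castrated sample was above both intact samples for the same 5 genes, where 17% of all genes tested were, and below both for 0, where 16.2% were. Since 3 of these 5 (Plin1, Plin4 and Cidec) entered the test only through castrated samples 2 and 3, neither count is support for a difference. In castrated sample 1, Plin1 had 3 counts against 2 and 0 in the intact samples, and Plin4 0.627 CPM against 0.602 in the nearer of them. With a CPM above 1 required in at least 3 samples, 2 of 5 (Plin2 and G0s2) passed the unadjusted rule. In either direction, 10.4% of the 14033 genes tested did. The same 2 did not overlap, and the share over all genes was not computed for that filter. Single samples were then left out with the filter applied anew, and the unadjusted rule was read in either direction. Without castrated sample 1, the same 5 of 9 passed, where 13.5% of all genes did. Again 3 of these 5 entered only through castrated samples 2 and 3. Without castrated sample 3, 1 of 5 (Plin2) passed, where 6.09% of all genes did. Without castrated sample 2, 1 of 6 (Plin2) passed, where 6.22% did. Without intact sample 1, 2 of 8 (Plin2 and G0s2) passed, against 17.8% of all genes, and without intact sample 2, 1 of 9 (Plin2) passed, against 10.3%. The counts without either intact sample are thus near the share over all genes. No gene below is called changed on the adjusted p, and each is described by its values in the samples.

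**Figure D1:**
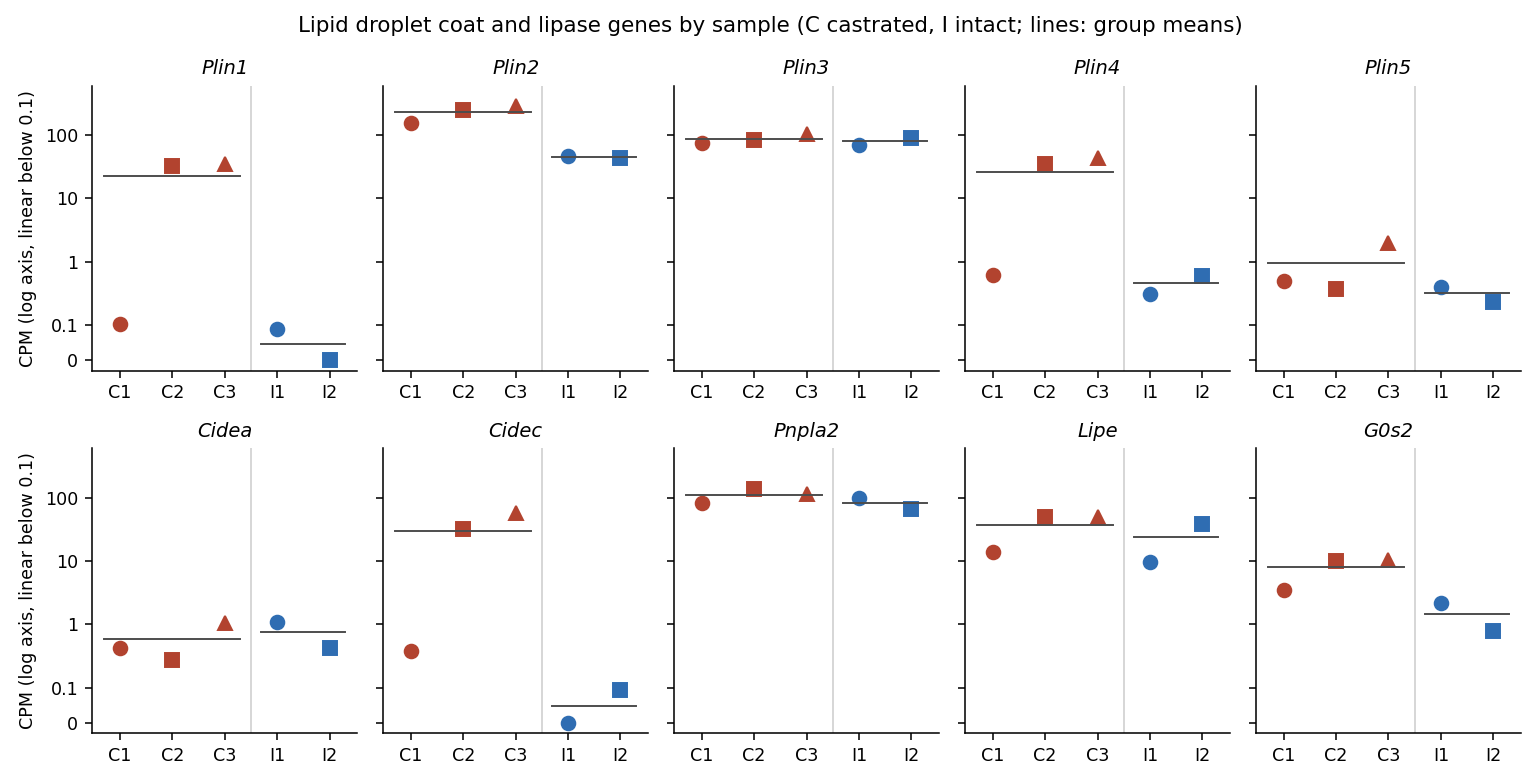
CPM of the 10 lipid droplet genes (vertical axis, logarithmic above 0.1 and linear below) in each castrated (C1 to C3, red) and intact (I1, I2, blue) sample, with lines at the group means. Plin1, Plin4 and Cidec are high only in C2 and C3, Plin2 and G0s2 are above both intact samples in all 3 castrated samples, and Plin3, Pnpla2 and Lipe overlap.

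**Figure D2:**
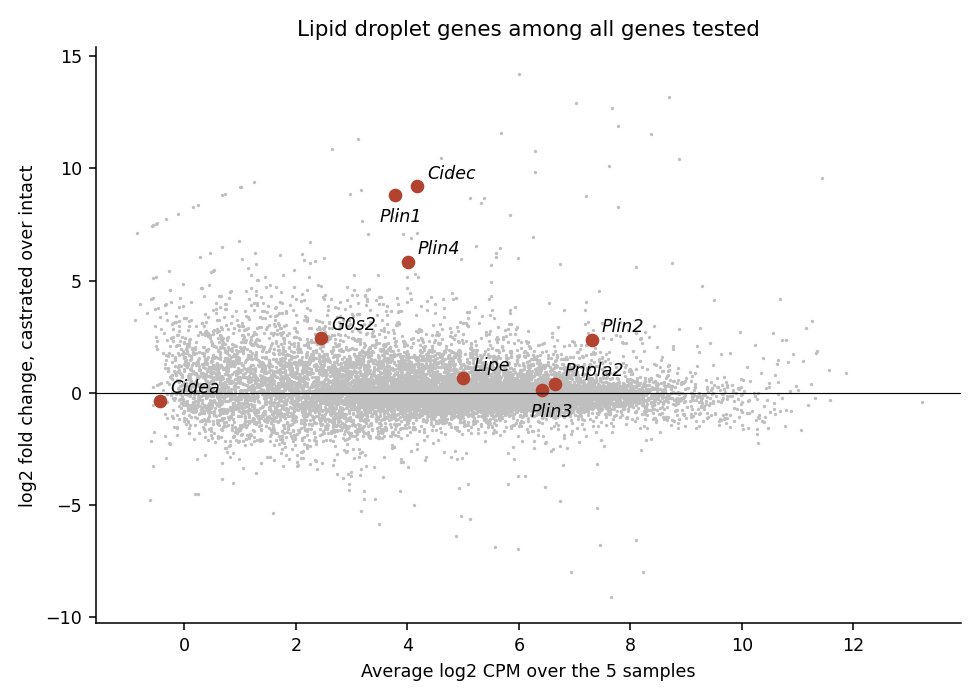
Fitted log2 fold change of castrated over intact samples (vertical axis) against the average log2 CPM (horizontal axis) for the 14612 genes tested (grey), with the 9 lipid droplet genes tested in red. Cidec (9.19), Plin1 (8.80) and Plin4 (5.83) lie near the upper edge of the cloud, while Plin3 (0.13), Pnpla2 (0.41) and Lipe (0.64) lie within it.

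Among the coat proteins of adipocytes, Plin1 (chromosome 7, 79721164 to 79732776, minus strand, mm10) had 3, 612 and 727 counts in castrated samples 1, 2 and 3, and 2 and 0 in intact samples 1 and 2. These are 0.105, 32.8 and 35.0 CPM in castrated and 0.0895 and 0 CPM in intact samples, and a count of 0 in intact sample 2 allows a level of up to 0.139 CPM (3 counts in that library). Castrated samples 2 and 3 were high and close to each other, and the other 3 samples held almost no Plin1. The rate over all 3 castrated samples was 442 times that over the intact samples (exact 95% interval 122 to 3652), on 1342 against 2 counts, and that of castrated sample 1 alone was 2.38 times (0.272 to 28.5), an interval that includes equality. Such intervals cover counting error only, not the spread between mice, and describe a gene that entered the test through its 2 high samples. Over all samples the log2 fold change was 8.80, with a standard error of 2.64 and an adjusted p of 0.290 in edgeR's quasi-likelihood test. This size rests on the 2 intact counts, and the value was 7.86 without intact sample 2 and 11.99 without intact sample 1, which leaves a single intact sample at 0 counts and so no real fold. Without castrated sample 3 it was 8.33. On log2 TPM with an offset of 0.5, which shrinks changes of scarce genes, limma gave 4.23.

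Cidec (chromosome 6, 113424634 to 113435760, minus strand), which drives droplet fusion, had 11, 605 and 1175 counts in castrated samples 1, 2 and 3, and 0 and 2 in intact samples 1 and 2. In CPM it stood at 0.383, 32.4 and 56.6 in castrated and at 0 and 0.0927 in intact samples. Castrated samples 2 and 3 were again the high ones, with castrated sample 1 low but above both intact samples. Its rate over all 3 castrated samples was 590 times that over the intact samples (exact 95% interval 163 to 4872). In castrated sample 1 alone, on 11 counts, the rate was 8.72 times that of the intact samples (1.90 to 81.0). As for Plin1, these intervals cover counting error only, not the spread between mice, and Cidec entered the test through its 2 high samples. The log2 fold change was 9.19, with a standard error of 2.5 and an adjusted p of 0.290 in edgeR's quasi-likelihood test. It was 8.32 without castrated sample 3 and 8.27 without intact sample 1. Without intact sample 2 it was 12.39, against a single intact sample at 0 counts, and limma on log2 TPM gave 4.79. Within the castrated samples, the ratio of Cidec to Plin1 in TPM was 4.0, 1.08 and 1.76, the first of these on 11 and 3 counts.

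Plin4 (chromosome 17, 56100589 to 56109782, minus strand), the coat protein of nascent droplets in fat cells, had 0.627, 34.3 and 43.5 CPM in castrated samples 1, 2 and 3. Intact samples 1 and 2 had 0.313 and 0.602 CPM. Castrated sample 1 lay just above intact sample 2, and the gap to castrated samples 2 and 3 was far wider than any difference among the low samples. In counts, castrated sample 1 was 1.43 times the intact samples (exact 95% interval 0.712 to 2.84). All 3 castrated samples together were 51.4 times the intact samples (33.2 to 84.4). These intervals too cover counting error only, not the spread between mice, and Plin4 entered the test through castrated samples 2 and 3. The log2 fold change was 5.83, with a standard error of 1.89 and an adjusted p of 0.302 in edgeR's quasi-likelihood test. It was 5.24 without castrated sample 3, 6.40 without castrated sample 1, and 3.07 with limma on log2 TPM. Plin4 shares 17 exonic bases with Hdgfl2 on the opposite strand, which held between 29.5 and 46.9 CPM in all samples.

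Plin2 and the adipocyte coat genes are set beside each other because Plin1 and Cidec were high only in castrated samples 2 and 3. The patterns were still alike in part, with Pearson correlations of Plin2 over the 5 samples of 0.863 with Plin1 and 0.913 with Cidec. The 250 bases before the start of each gene are shown from RefSeq (build GRCm38.p6, the mm10 assembly), 5′ to 3′ on the strand of the gene. They lie on chromosome 7 from 79732777 to 79733026 (Plin1), on chromosome 6 from 113435761 to 113436010 (Cidec) and on chromosome 4 from 86670060 to 86670309 (Plin2), all on the minus strand. Capitals mark matches to the motifs searched.
Plin1: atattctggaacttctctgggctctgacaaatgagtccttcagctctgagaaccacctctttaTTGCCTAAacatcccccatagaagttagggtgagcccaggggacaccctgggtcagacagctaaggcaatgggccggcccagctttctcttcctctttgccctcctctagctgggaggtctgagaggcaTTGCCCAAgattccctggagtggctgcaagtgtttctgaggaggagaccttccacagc
Cidec: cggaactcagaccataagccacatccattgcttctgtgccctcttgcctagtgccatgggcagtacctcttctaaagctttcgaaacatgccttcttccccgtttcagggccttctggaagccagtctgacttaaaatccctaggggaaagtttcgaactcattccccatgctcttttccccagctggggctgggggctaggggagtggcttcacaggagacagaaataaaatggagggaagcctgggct
Plin2: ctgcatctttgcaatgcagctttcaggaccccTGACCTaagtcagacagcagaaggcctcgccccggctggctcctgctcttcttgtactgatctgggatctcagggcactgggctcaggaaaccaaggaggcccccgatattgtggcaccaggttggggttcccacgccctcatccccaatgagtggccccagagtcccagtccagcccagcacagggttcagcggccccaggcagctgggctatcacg
The motifs searched on both strands were the nuclear receptor half-site AGGTCA, the PPAR/RXR direct repeat of that half-site with 1 base between the copies, the C/EBP core TTGCNNAA, and the androgen and glucocorticoid receptor half-site AGAACA. A direct repeat also counts as a half-site. Windows of 9 of the 10 genes were searched, and Cidea was left out. The Plin1 window held the C/EBP core at 2 places, from -187 to -180 and from -58 to -51 counted from the gene start, and 9.56% of 32851 RefSeq windows of the same length held at least 1. The Plin2 window held the half-site on the opposite strand from -218 to -213, as the Plin5 window did on its own strand from -170 to -165, and 14.0% of all windows held one. The direct repeat was in 0.0335% and the AGAACA half-site in 16.1% of all windows, and neither was in any of the 9. In the other 6 windows, Cidec included, these letters were not present, which says nothing of more distant sites.

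Plin2 (chromosome 4, 86656565 to 86670059, minus strand), the coat protein of most non-fat cells, had 155, 253 and 292 CPM in castrated samples 1, 2 and 3, and 47.1 and 43.7 CPM in intact samples 1 and 2. The groups did not overlap, and their means were 233 ± 70.6 CPM (SD, n = 3) after castration and 45.4 ± 2.37 CPM (SD, n = 2) without it. Castrated sample 1 was 3.41 times the intact mean, and castrated samples 2 and 3 were 5.56 and 6.42 times. The log2 fold change was 2.36, with a standard error of 0.34, and edgeR's quasi-likelihood test gave an unadjusted p of 0.00073 and an adjusted p of 0.289. It stayed between 2.16 and 2.59 when each sample was left out in turn, and Plin2 passed the unadjusted rule each time. Without castrated sample 3 it was 2.16.

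Plin3 (chromosome 17, 56278962 to 56290511, minus strand), which moves from the cytosol onto new droplets, had 75.2, 84.3 and 104 CPM in castrated and 69.7 and 91.1 CPM in intact samples. The groups overlapped, with intact sample 2 above castrated samples 1 and 2. Its log2 fold change was 0.13, with a standard error of 0.24 and an adjusted p of 0.822 in edgeR's quasi-likelihood test, and its sign turned without castrated sample 3 (-0.0134) or without intact sample 1 (-0.03). Within each sample, the TPM ratio of Plin2 to Plin3 was 2.35, 3.43 and 3.22 in castrated and 0.773 and 0.550 in intact samples. Plin2 was thus the more abundant of the pair in every castrated sample and the less abundant in both intact samples. The log2 ratio differed by 2.18, with an exact two-sided permutation p of 0.1, the smallest that 3 against 2 samples allow, and 0.15 after adjustment over the 3 ratios tested. The difference was 2.12 without castrated sample 3.

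Plin5 (chromosome 17, 56111601 to 56117548, minus strand), the perilipin of heart, muscle and liver, had 14, 7 and 41 counts in castrated and 9 and 5 counts in intact samples. In CPM this was 0.488, 0.375 and 1.97 against 0.403 and 0.232, so the groups overlapped and castrated sample 3, which also held the liver genes, was the highest. It did not enter the test. Skeletal muscle genes were near the floor in all samples, with 8 genes summing to between 3.38 and 5.44 CPM and Myh1 at 0 counts in all 5.

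Summed over the 5 perilipins, TPM was 277, 465 and 539 in castrated samples 1, 2 and 3, and 143 and 122 in intact samples 1 and 2. Plin2 took 69.9%, 68.4% and 67.6% of that sum in the castrated samples and 43.4% and 35.4% in the intact samples. Plin3 took most of the rest in every sample, from 20.0% to 29.7% in castrated and 56.1% and 64.3% in intact samples. Plin1 made up 8.75% and 7.99% in castrated samples 2 and 3, and 0.0466% in castrated sample 1. Plin4 reached 2.99% at most, because its TPM stays low for a gene of 6.323 kb. The Plin2 share of castrated sample 1 was therefore like that of the other castrated samples while its Plin1 share was like that of the intact samples.

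**Figure D3:**
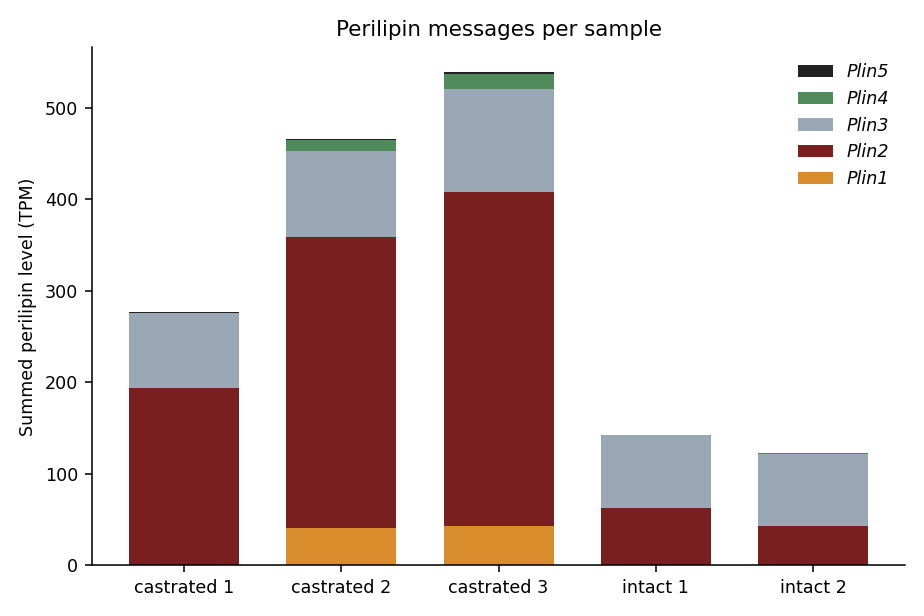
TPM of the 5 perilipin genes stacked for each sample (vertical axis, TPM from 0). The sum is 277 to 539 in castrated and 122 to 143 in intact samples, Plin2 is the largest block in the 3 castrated samples and Plin3 in the 2 intact ones, and Plin1 is visible only in castrated samples 2 and 3.

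Of the CIDE proteins, Cidea is known from brown fat and lactating mammary gland. It had 12, 5 and 22 counts in castrated and 24 and 9 counts in intact samples, or 0.418, 0.268 and 1.06 CPM against 1.07 and 0.417. The groups overlapped and its log2 fold change was -0.35, with a standard error of 0.85 and an adjusted p of 0.872 in edgeR's quasi-likelihood test. On so few counts single samples decided its size, which was -1.09 without castrated sample 3, -0.03 without castrated sample 2, -0.15 without castrated sample 1 and -0.92 without intact sample 2. The 8 genes of the brown fat list summed to 460, 313 and 128 CPM in castrated and 612 and 65.4 CPM in intact samples. Of the 8, 3 were tested, 1 with a positive and 2 with a negative log2 fold change, and 0 passed the unadjusted rule higher and 1 lower, where 7.66% and 3.26% of all genes did. The one past the rule was Ppargc1a, a coactivator of mitochondrial genes, at 17.6, 12.7 and 11.2 CPM in castrated and 45.3 and 26.2 CPM in intact samples (log2 fold change -1.37, unadjusted p of 0.0102 and adjusted p of 0.290 in edgeR's quasi-likelihood test). Every castrated sample was below both intact samples. Dio2, a deiodinase that activates thyroid hormone, had 55.0, 63.0 and 47.3 CPM in castrated and 6.04 and 28.9 CPM in intact samples, with every castrated sample above both (log2 fold change 1.66, unadjusted p of 0.0523 and adjusted p of 0.338 in the same edgeR test). Otop1 was the most abundant in every sample but intact sample 2, at 386, 237 and 69.3 CPM in castrated and 559 and 8.99 CPM in intact samples, and overlapped. Of the genes that define brown fat, Ucp1, the uncoupling protein, was at 0.349 CPM or less, Elovl3 was at 0 in 4 of 5 samples and Zic1 in all but intact sample 2 (0.0463 CPM).

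Pnpla2 (chromosome 7, 141455188 to 141460743, plus strand) was the more abundant lipase by TPM in all 5 samples. It had 82.9, 135 and 114 CPM in castrated and 101 and 66.0 CPM in intact samples, with castrated sample 1 between the intact ones. Its log2 fold change was 0.41, with a standard error of 0.30 and an adjusted p of 0.557 in edgeR's quasi-likelihood test, and 0.38 was found without castrated sample 3. Its size moved with the intact samples, to 0.77 without intact sample 1 and 0.0985 without intact sample 2. Lipe (chromosome 7, 25379527 to 25395987, minus strand) had 13.7, 49.1 and 48.7 CPM in castrated and 9.71 and 38.2 CPM in intact samples. Castrated sample 1 and intact sample 1 were low, and the other 3 samples were high, so the level of Lipe did not follow the groups. Its log2 fold change was 0.64, with a standard error of 0.79 and an adjusted p of 0.731 in edgeR's quasi-likelihood test. Either intact sample decided this value, which was -0.02 without intact sample 1 and 1.90 without intact sample 2. It was 0.39 without castrated sample 3. The gene 4732471J01Rik lies across Lipe on the opposite strand and shares 918 exonic bases with it, but held only 0.279 to 1.25 CPM. The TPM ratio of Lipe to Pnpla2 was 0.137, 0.302 and 0.354 in castrated and 0.0800 and 0.480 in intact samples (exact two-sided permutation p = 0.8). The log2 ratio differed by 0.32, and by 0.05 without castrated sample 3. This difference turned to -0.97 without intact sample 1 and was 1.61 without intact sample 2.

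G0s2 (chromosome 1, 193272160 to 193273188, minus strand), the inhibitor of Pnpla2, had 3.52, 9.97 and 10.5 CPM in castrated samples 1, 2 and 3. Intact samples 1 and 2 had 2.15 and 0.788 CPM, on 48 and 17 counts. All castrated samples were above both intact samples, castrated sample 1 by the least. The log2 fold change was 2.44, with a standard error of 0.75, and edgeR's quasi-likelihood test gave an unadjusted p of 0.0208 and an adjusted p of 0.299. It was 2.19 without castrated sample 3, 3.35 without intact sample 1 and 1.85 without intact sample 2. Relative to its target, the TPM ratio of G0s2 to Pnpla2 was 0.137, 0.238 and 0.296 in castrated and 0.0686 and 0.0384 in intact samples. The ratio was higher in 3 of 3 castrated samples, by 2.05 on the log2 scale (exact two-sided permutation p = 0.1, the smallest possible, and 0.15 after adjustment over 3 ratios), and by 1.81 without castrated sample 3. G0s2 lies wholly inside the span of Lamb3 on the opposite strand without sharing an annotated exon, and Lamb3 held 67.5 to 225 CPM. Whether counting used the strand of reads is not given in the sources used here, so the counts of Lipe, G0s2 and Plin4 are uncertain to that extent.

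**Figure D4:**
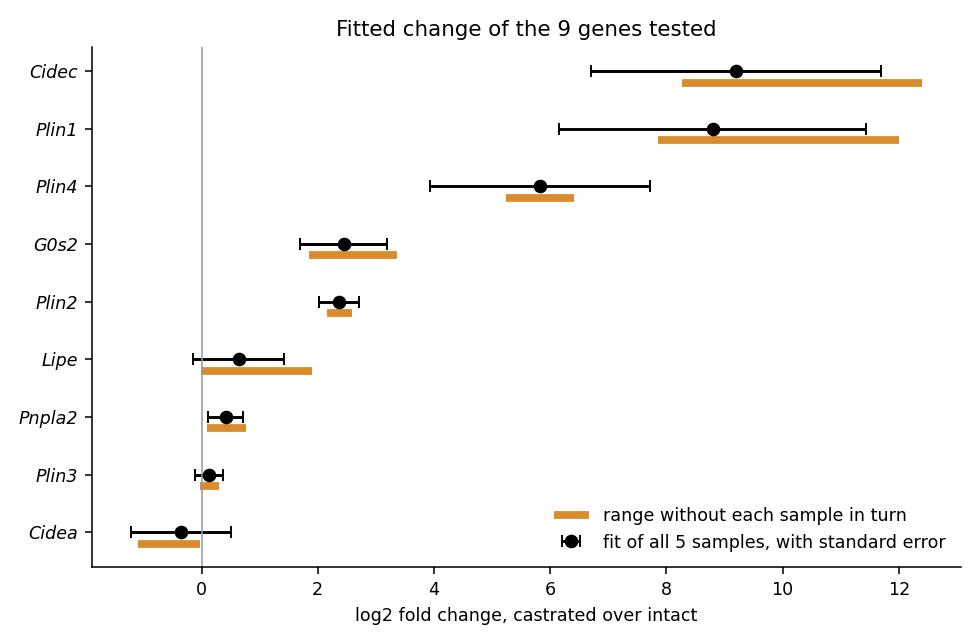
Fitted log2 fold change of castrated over intact samples (horizontal axis) for the 9 genes tested, with the standard error (black bars) and the range of the value when single samples were left out (orange). Plin2 has the narrowest range, 2.16 to 2.59, of the 5 genes past the unadjusted rule, and the ranges of Lipe and Plin3 cross 0.

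In order of TPM, Plin2 led in all 3 castrated samples, at 193, 318 and 364, followed by Plin3 and Pnpla2 in either order. In the intact samples, Plin2 (61.9 and 43.3 TPM) came after both Pnpla2 (92.0 and 45.3) and Plin3 (80.1 and 78.7), although Plin2 and Pnpla2 were close in intact sample 2. Cidec and Plin1 came next after these in castrated samples 2 and 3 and were among the last 3 of the 10 genes in the other samples. Lipe came before G0s2 in every sample, but by 9.85 against 9.84 TPM in castrated sample 1.

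Among the genes whose log2 CPM followed Plin1 most closely over the 5 samples were Retn, Adra2c, Anxa5, Marveld1, Emilin3, Aqp7 and Efhd1, with Pearson correlations of 0.996 to 0.999. Retn (resistin) and Aqp7 (the glycerol channel of fat cells) are also on the white adipocyte list below. Those nearest to Plin2 included Oosp1, Camk2b, Acvrl1, B3gnt8, Cfap410, Fxyd2 and Ripply3, with correlations of 0.996 to 0.999. With 5 libraries, and Plin1 falling into 2 high and 3 low samples, such correlations only describe the pattern.

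White adipocyte genes were highest in the same samples as Plin1, Plin4 and Cidec. Of 12 genes on the list, 12 were tested and had a positive log2 fold change, 8 were above both intact samples in every castrated sample, where 17% of all genes were, and 7 passed the unadjusted rule higher, where 7.66% of all genes did. Of the 12, 7 passed the filter on low counts only through castrated samples and had to differ, so these counts describe the list and support nothing. Their summed CPM was 62.0, 1190 and 1148 in castrated samples 1, 2 and 3, and 53.5 and 68.0 in intact samples 1 and 2. By this sum castrated sample 1 lay between the intact samples, but its mean log2 CPM over the list, 0.16, was above the -0.81 and -0.84 of intact samples 1 and 2. In 8 of the 12 genes, among them Cfd (48 counts against 0 and 0) and Thrsp (57 against 13 and 8), castrated sample 1 was above both intact samples. Others of the 8 were at the floor, with Retn at 2 counts against 1 and 0, Tshr at 2 against 0 and 0 and Aqp7 at 1 against 0 and 0. The share of all genes with castrated sample 1 above both intact samples was not computed, so nothing is read from the 8. The most abundant gene of castrated samples 2 and 3 was Car3, at 523 and 559 CPM, and it was at 1.81 or less in the others. In castrated sample 1 and intact samples 1 and 2 it was Fabp4, at 37.0, 26.0 and 51.8 CPM, followed by Gpd1 at 12.2, 19.8 and 11.2 CPM, and these genes made up most of the sum there. Of the defining genes, Adipoq (adiponectin) had 0.523, 68.7 and 67.5 CPM in castrated and 0 and 0.0927 in intact samples, and Lep (leptin) was at 0 counts in castrated sample 1 and both intact samples. Fat cells and their droplet genes were measured in the same pieces of tissue, and the part of adipocyte RNA in the results for Plin1, Plin2, Plin4, Cidec and G0s2 was not tested. In castrated sample 1, Cidec was 8.27 times, Plin2 3.41 times, G0s2 2.40 times, Plin1 2.34 times and Plin4 1.37 times the intact mean. The values of Cidec and Plin1 rest on 11 and 3 counts in that sample.

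Macrophage genes, like Plin2, were highest in the castrated samples. Their summed CPM was 2924, 15367 and 6133 in castrated and 1457 and 2144 in intact samples, so castrated sample 1 was above both intact samples. Of 10 genes, 10 had a positive log2 fold change, 9 were above both intact samples in every castrated sample (17% of all genes) and 8 passed the unadjusted rule higher (7.66%). Gpnmb, a gene of lipid-laden macrophages, was at 305, 7883 and 3158 CPM in castrated and 352 and 465 CPM in intact samples, and was the most abundant of the list in castrated samples 2 and 3. In castrated sample 1 and intact samples 1 and 2 the most abundant was Lyz2 (lysozyme), at 1594, 558 and 1069 CPM. Adgre1 (F4/80) had 56.3, 176 and 93.3 CPM in castrated and 20.2 and 40.1 in intact samples. The highest macrophage sum was in castrated sample 2 and the highest Plin2 level in castrated sample 3, and the part of macrophage RNA in the Plin2 result was not tested. Smooth muscle genes were also higher, with sums of 379, 676 and 627 CPM in castrated and 236 and 149 CPM in intact samples, and 5 of 6 passed the unadjusted rule higher (7.66% of all genes). Acta2 was the most abundant of them in the castrated and Tagln in the intact samples. Endothelial genes summed to 435, 269 and 308 CPM in castrated and 479 and 155 CPM in intact samples, and 1 of 6, Tek, passed the unadjusted rule higher (7.66% of all genes), with 3 above both intact samples in every castrated sample (17%). Cdh5 was the most abundant in castrated sample 2 and intact sample 1, and Pecam1 in castrated samples 1 and 3 and intact sample 2. The 10 prostate epithelial genes summed to 3270, 3085 and 3936 CPM in castrated and 4532 and 5411 CPM in intact samples, with both intact samples above all castrated ones. As a mean of log2 CPM over the list the order was another, 5.61, 5.19 and 5.73 in castrated and 4.86 and 8.19 in intact samples, with intact sample 1 the lowest. Krt8 was the most abundant in the castrated samples, Epcam in intact sample 1 and Tgm4 in intact sample 2.

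**Figure D5:**
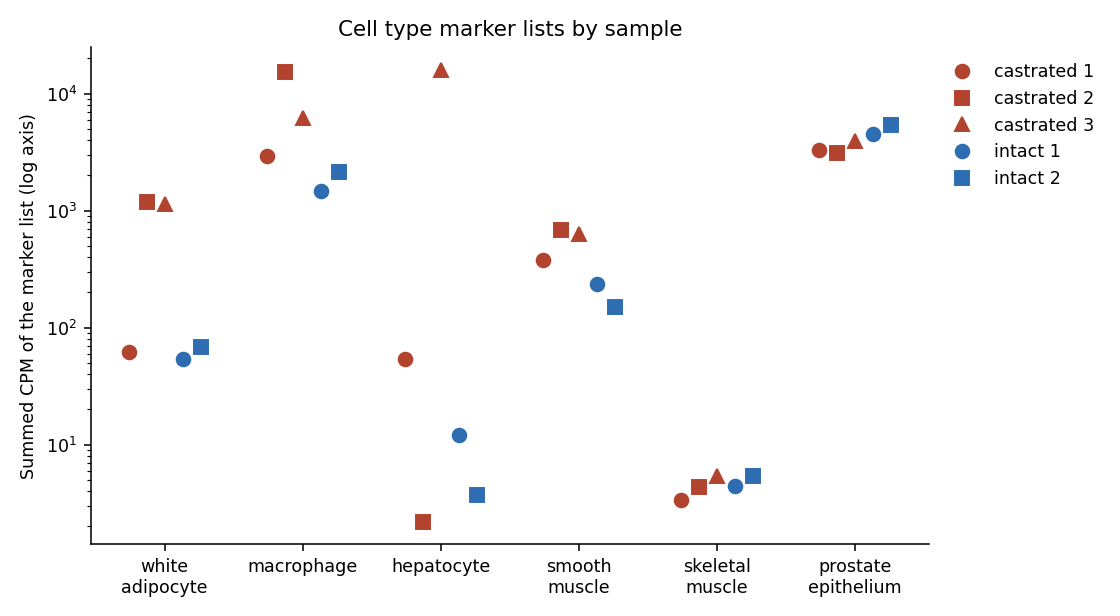
Summed CPM of 6 cell type marker lists (vertical axis, logarithmic) in each sample. White adipocyte genes are high only in castrated samples 2 and 3 (1190 and 1148 against 68.0 or less), hepatocyte genes only in castrated sample 3 (15918), and macrophage genes are above both intact samples in all 3 castrated samples.

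Around the droplet, 10 cofactors and other lipid hydrolases were all tested. Of these, 7 had a positive and 3 a negative log2 fold change, 4 passed the unadjusted rule, all higher (7.66% of all genes), and 5 were above both intact samples in every castrated sample (17%). Of these 5, Pnpla3 and Ces1f passed the filter only through castrated samples and had to differ. Ces1f is also among the 4 past the unadjusted rule, so neither count is support for a difference. The median was 2.28, where that over all genes tested was -0.03, and nothing is read from it. Mgll, which releases the last fatty acid from monoglyceride, had 41.9, 105 and 109 CPM in castrated and 18 and 10.3 CPM in intact samples (log2 fold change 2.60 ± 0.55 standard error, adjusted p of 0.289 in edgeR's quasi-likelihood test). Lipa, the acid lipase of lysosomes, had 133, 767 and 334 CPM in castrated and 83.2 and 46.0 CPM in intact samples. Every castrated sample was above both intact samples for both genes. Ces1d and Ces1f, carboxylesterases of liver and fat, were highest in castrated sample 3, at 132 and 18.9 CPM, the sample with the liver genes. Lpl, which frees fatty acids from blood lipoproteins, was 153, 1703 and 910 CPM in castrated and 37.3 and 211 CPM in intact samples, and the groups overlapped. Abhd5, the activator of Pnpla2, stayed between 29.5 and 51.8 CPM in all samples, and Hilpda, another inhibitor of Pnpla2, between 13.9 and 61.8 CPM, with overlap for both.

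The 10 genes of adrenergic and cAMP control, the hormonal switch of lipolysis, were all tested. Of these, 7 had a positive log2 fold change, 5 were above both intact samples in every castrated sample (17% of all genes), 0 passed the unadjusted rule with its fold change threshold in either direction (7.66% higher, 3.26% lower), and the median was 0.38. Of those 5, Adrb3 passed the filter only through castrated samples and had to differ. Pde3b, the phosphodiesterase through which insulin restrains lipolysis, had 60.2, 66.4 and 47.4 CPM in castrated and 38.2 and 24.3 CPM in intact samples. Prkaca, a catalytic subunit of protein kinase A, had 91.5, 83.1 and 88.2 CPM in castrated and 61.4 and 65.4 CPM in intact samples. Their log2 fold changes, 0.90 and 0.47, were under the threshold of 1. Adrb3, the receptor that starts lipolysis in rodent fat, was low throughout, at 0.244, 2.36 and 1.25 CPM in castrated and 0.0448 and 0.232 CPM in intact samples. Of the 3 genes with a negative log2 fold change, Adrb1 (-0.93) and Npr1 (-0.84) had the largest. Both were highest in intact sample 2, at 12.1 and 58.7 CPM, and overlapped between the groups.

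Among 12 genes of triglyceride synthesis and droplet formation, 10 were tested, 5 with a positive and 5 with a negative log2 fold change, and the median was 0.01. Of these, 4 (Lpin1, Dgat2, Acsl1 and Bscl2) were above both intact samples in every castrated sample, where 17% of all genes were, and 0 were below both, where 16.2% were. The 2 past the unadjusted rule, both higher (7.66% of all genes), were Dgat2, which makes triglyceride, and Acsl1, which activates fatty acids. Dgat2 had 12.0, 44.6 and 49.4 CPM in castrated and 12.0 and 8.16 CPM in intact samples, so that castrated sample 1 was at the level of intact sample 1. Acsl1 had 71.9, 152 and 121 CPM in castrated and 50.5 and 46.0 CPM in intact samples, with all castrated samples above. Bscl2 (seipin), which shapes new droplets, had 46.8, 42.4 and 36.0 CPM in castrated and 23.0 and 34.0 CPM in intact samples, a log2 fold change of 0.55 with an unadjusted p of 0.0877 in edgeR's quasi-likelihood test. Dgat1 and Fitm2 were between 16.8 and 27.4 CPM in every sample, and overlapped. Tmem159 had 48.4, 45.0 and 45.8 CPM in castrated and 31.6 and 188 CPM in intact samples, a log2 fold change of -1.24 with overlap.

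Of 10 other proteins of the droplet surface, 8 were tested, 5 with a positive and 3 with a negative log2 fold change, and 2 passed the unadjusted rule higher (7.66% of all genes), the same 2 being above both intact samples in every castrated sample (17%). These were Cav1 and Cavin1, which build caveolae in fat, endothelial and smooth muscle cells as well as binding droplets. Cav1 had 57.9, 105 and 150 CPM in castrated and 17.8 and 25.9 CPM in intact samples, and Cavin1 had 104, 163 and 225 against 56.5 and 52.9. Aup1, which recruits ubiquitin ligase machinery to droplets, was lower in every castrated sample, at 83.6 to 86.4 CPM against 92.0 and 95.9. Its log2 fold change was -0.14, and it was the 1 gene of the 8 below both intact samples, where 16.2% of all genes were. Cideb and Hsd17b13, the liver members of this list, reached 13.7 and 7.65 CPM in castrated sample 3 and 0.523 or less in the other samples.

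Of 9 nuclear receptors and factors that control these genes, 7 had a positive and 2 a negative log2 fold change, and 1, Cebpa, passed the unadjusted rule higher (7.66% of all genes). Cebpa, a C/EBP factor of fat cells, liver and myeloid cells, had 23.8, 112 and 96.8 CPM in castrated and 12.0 and 15.4 CPM in intact samples. Cebpb had 29.5, 49.7 and 40.3 CPM in castrated and 20.5 and 21.4 CPM in intact samples, also without overlap. Pparg, the main regulator of fat cell genes, had 9.48, 24.5 and 20.9 CPM in castrated and 15.6 and 7.69 CPM in intact samples, and overlapped. Ppara was highest in castrated sample 3 (13.6 CPM against 2.97 or less elsewhere). Srebf1, a regulator of fatty acid synthesis, was lower in every castrated sample, at 94.4 to 103 CPM against 107 and 110. Its log2 fold change was -0.11. Of the 9, 2 (Cebpa and Cebpb) were above both intact samples in every castrated sample, where 17% of all genes were. Srebf1 was the 1 below both, where 16.2% were.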

How the data were processed

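RNA-seq samples of 3 castrated and 2 intact TripleTg mice were grouped by condition as labelled. The authors depleted ribosomal RNA (Kapa RiboErase), trimmed paired-end reads (Trimmomatic 0.39), mapped them to mm10 (STAR 2.7.9) and deposited raw read counts per gene from HTSeq 2.0.2, without normalization. The deposited gene length in kb was used for TPM. A gene entered the test when its CPM exceeded 1 in 2 or more samples. It was tested with the quasi-likelihood test of edgeR 4.0.16 (R 4.3.3, TMM scaling, Benjamini-Hochberg adjustment), the filter and thresholds of the study's methods. Those methods name TPM as input, and here counts were used, with TPM in limma 3.58.1 as an alternative. A standard error is the size of the log2 fold change over the root of F. The genes and lists were chosen with earlier results of these data known, and the text names all 10 genes and any gene of the fixed lists. The common dispersion between mice was 0.238, so the spread between mice outweighs counting error except in scarce genes. Intervals and floors cover counting error only. No sample was left out, and the procedures were tested on simulated counts. Spart is listed in the table as Spg20. Alternatives were DESeq2 1.42.0, the likelihood ratio test, other scalings and filters, a replicate block and leaving out each sample. Some genes with a pattern like that of a named gene are not reported here.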

Additional observations from a re-analysis of the deposited data

How the results depend on the processing

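No gene tested had an adjusted p under 0.05 with an absolute log2 fold change above 1, but DESeq2 called 989 genes (703 higher, 286 lower) and edgeR's likelihood ratio test 369 (276 higher, 93 lower). Among the 9 lipid droplet genes, DESeq2 called 5 (Plin1, Plin2, Plin4, Cidec, G0s2) and the likelihood ratio test 4 (not G0s2). Adjusted p ranged over the alternatives from 2.72e-07 to 0.689 for Plin2 and from 0.0309 to 0.748 for G0s2. With single castrated samples left out, 0 genes were called. In the quasi-likelihood fit of all 5 samples, 2195 of the 14612 genes tested had an unadjusted p under 0.05 at any fold change. The 5 genes past the unadjusted rule became 2 (Plin2, G0s2) when 3 samples had to exceed a CPM of 1, where 10.4% of all genes passed. With limma on log2 TPM they became 2 (Plin2, G0s2), where 9.52% passed and the median of all genes was 0.13 against -0.03. With the replicate number as a block they became 3 (Plin1, Plin2, Cidec), where 6.67% passed. Of these 3, Plin1 and Cidec passed the filter only through castrated samples 2 and 3. The median of the 9 genes was 0.65 with that 3-sample filter, which removed 4 of them. Leaving out single castrated samples gave 1 to 5 of these genes, where 6.09% to 13.5% of all genes passed, and 2 to 7 genes without overlap. The 5 and the 7 were found without castrated sample 1. They include Plin1, Plin4 and Cidec, which entered only through castrated samples 2 and 3. The share of all genes without overlap was not computed with samples left out, so nothing is read from those counts. Only Plin2 passed without castrated sample 2 or 3, or without intact sample 2, and Plin2 and G0s2 passed without intact sample 1. Without castrated sample 2 or 3, Plin1, Plin4 and Cidec failed the filter itself. The filter of all samples was an alternative chosen after seeing the data. With it, 3 passed without castrated sample 2 (Plin1, Plin2, Cidec), where 6.31% of all genes did. Without castrated sample 3, 4 passed (Plin1, Plin2, Plin4, Cidec), where 6.15% did. Without castrated sample 1, 5 passed, where 13.3% did. That filter kept Plin1, Plin4 and Cidec only through castrated samples 2 and 3, where they were high, so these counts are no support for a difference. The older quasi-likelihood fit of edgeR, also added later, gave the same counts as the main fit.

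The sign of Plin3 turned under the replicate block (-0.0026), without castrated sample 3 (-0.0059, and -0.0134 with the filter of all samples) and without intact sample 1 (-0.0313), with a range of -0.0313 to 0.29 over left-out samples. Without intact sample 1, that of Lipe (-0.0171, range -0.0171 to 1.90) and the log2 difference of the Lipe to Pnpla2 ratio (-0.97) turned too, and the ratio ranged from -0.97 to 1.61 over left-out samples. The skeletal muscle list turned to 0.26 as a mean of log2 CPM. The cause of these turns was not tested. Of 141 values of single lipid droplet genes over 17 alternatives, 127 kept their direction and side of the threshold, 9 crossed to the called side and 5 changed sign. Same-numbered samples are different mice, and their deviations from the group means correlated by 0.149 and -0.045, so the block pairs numbers only. With 3 against 2 samples an exact permutation test cannot go below 0.1.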
